A study of Mus musculus with 8 samples.

Results

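The genes described here are 43 imprinted genes of the mouse, taken by gene name from a list set out by imprinted locus, in RNA-seq of hair matrix keratinocytes. All 43 had a row among the 29647 genes of the untreated table, and 42 had one among the 29246 genes of the 5-aza table, where Asb4 was not listed. They belong to 20 loci, and by textbook knowledge 18 are expressed from the maternal allele, 24 from the paternal allele and 1 (Gnas) from either allele according to the transcript. The expressed allele was not read in these data, which hold 1 value per gene.

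The 8 libraries fall into 4 groups of 2. WT animals and DKO animals, the latter labelled Tet2/Tet3 DKO with Krt14-Cre, were untreated or were given 50 µg of 5-aza under the skin at postnatal day 2.5, and matrix keratinocytes were sorted from the skin of all of them at postnatal day 4.5. Hair matrix keratinocytes proliferate in the bulb of the growing follicle and give rise to the hair shaft and inner root sheath, Tet2 and Tet3 encode dioxygenases that oxidise 5-methylcytosine, and 5-aza (5-azacytidine or its deoxy form; the labels do not say which) blocks maintenance of DNA methylation. The Krt14 promoter drives Cre in basal epithelial cells, so other cells carried along in a sort need not be deleted. The labels give no strain or sex, and they do not say that the 2 libraries of a group came from separate animals, so p-values measure only the spread between these libraries.

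Imprinted genes are expressed mainly from 1 parental copy. Each locus is governed by a differentially methylated region (DMR), a stretch of DNA methylated in 1 germline and not in the other, whose methylation is kept through replication in somatic cells by a methyltransferase machinery and by zinc finger proteins such as ZFP57. Many of the genes act on growth before and just after birth, and the loci usually pair a protein-coding gene with a long noncoding RNA expressed from the opposite allele.

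Sequences are shown for H19, for the members that the authors' deposited table calls lower in untreated DKO (Plagl1 and Rian), and for Meg3 and Dio3os of the same domain as Rian. H19 carries in its first exon the hairpin of miR-675, whose mature forms lie at chr7:142577112-142577133 and chr7:142577078-142577099 on the minus strand (RefSeq, GRCm38.p6). Capitals mark the seed, bases 2 to 8, and the libraries analysed here measure the host RNA, not the mature miRNA.
mmu-miR-675-5p: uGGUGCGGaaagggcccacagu
mmu-miR-675-3p: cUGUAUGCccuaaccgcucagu

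The next sequences are the 250 bases before the annotated start of 4 genes (RefSeq, GRCm38.p6): Plagl1 at chr10:13090582-13090831 (plus strand), Meg3 at chr12:109540746-109540995 (plus), Rian at chr12:109603695-109603944 (plus) and Dio3os at chr12:110278069-110278318 (minus). Both untreated DKO libraries lay below both WT libraries for Plagl1, Meg3 and Rian, and above them for Dio3os, an imprinted gene of the Dlk1-Dio3 domain outside the 43. Capitals mark TGCCGC or its reverse complement GCGGCA, the hexamer that ZFP57 binds when methylated.
Plagl1: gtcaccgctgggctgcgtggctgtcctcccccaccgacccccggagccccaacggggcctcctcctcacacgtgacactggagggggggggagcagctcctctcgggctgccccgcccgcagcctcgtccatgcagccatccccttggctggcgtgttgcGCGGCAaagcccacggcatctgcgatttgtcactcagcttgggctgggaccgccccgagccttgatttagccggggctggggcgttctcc
Meg3: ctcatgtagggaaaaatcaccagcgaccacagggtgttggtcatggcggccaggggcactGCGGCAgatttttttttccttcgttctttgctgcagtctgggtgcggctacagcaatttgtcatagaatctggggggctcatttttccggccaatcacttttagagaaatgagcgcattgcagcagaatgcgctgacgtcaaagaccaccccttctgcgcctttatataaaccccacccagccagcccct
Rian: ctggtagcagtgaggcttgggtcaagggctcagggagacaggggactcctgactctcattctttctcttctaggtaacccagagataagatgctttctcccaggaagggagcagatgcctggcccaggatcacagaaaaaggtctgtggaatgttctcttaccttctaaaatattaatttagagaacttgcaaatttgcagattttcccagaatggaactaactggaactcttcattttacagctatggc
Dio3os: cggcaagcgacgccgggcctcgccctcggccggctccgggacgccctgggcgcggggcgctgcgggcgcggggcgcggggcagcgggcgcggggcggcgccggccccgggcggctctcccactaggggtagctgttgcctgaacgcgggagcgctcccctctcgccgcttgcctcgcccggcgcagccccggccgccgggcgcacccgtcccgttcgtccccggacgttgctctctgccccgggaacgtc

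The stretches before Plagl1 and Meg3 hold 1 copy of the hexamer each, and 19 and 10 CpG sites. That of Dio3os holds 44 CpG sites and no copy, and that of Rian neither a CpG nor a copy. Meg3 has another annotated start, and the stretch before it (chr12:109545148-109545397, not printed) also holds neither. Of the 43 members, 34 had 1 or more promoters in the RefSeq set (250 bases before to 50 after the start), 50 promoters in all, with a median of 14.5 CpG sites against 7 over all 32851 promoters. The hexamer, searched on both strands, was in 24% of the members' promoters and in 11.6% of all promoters. Among the members, it was in at least 1 promoter of 7 of the 11 genes whose DMR lies at a promoter by textbook knowledge, and of 4 of the other 23. Genes with several promoters were counted whichever promoter held the copy. For Grb10, whose DMR lies at an internal promoter, the copy was in the upstream window (chr11:12037371-12037670). The Grb10 window further into the gene (chr11:12027922-12028221) held none. The CTCF core AGGGGGC was in 20% against 10.6%, the YY1 motif AAGATGGC in 2% against 2.75%, the E-box CACGTG in 8% against 7.15% and the cAMP response element TGACGTCA in 8% against 1.79%. Promoters of 1 gene can overlap, and so can those of neighbours, so these shares describe letters in a window and not independent sites. The windows of Peg3 and Usp29 overlap, and both are counted as holding the cAMP response element.

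The libraries held 19528602 to 22837436 reads in the untreated table and 39493929 to 58353167 in the 5-aza table, of which 55.8% to 62.0% and 38.4% to 42.4% fell in listed genes. Values are in FPKM per the gene length the authors deposited, which for 97.6% of the untreated genes is the sum of all annotated exon records of all transcripts; it lowers the FPKM of genes with many isoforms and leaves a gene's comparison between libraries as it is. Levels of different genes are therefore compared here per exon-union length, the bases covered by any exon. Tet3 was 11.8 and 11.4 FPKM in untreated WT and 6.92 and 7.31 in DKO, and 10.4 and 11.5 against 6.54 and 5.99 after 5-aza. Tet2 was 3.23 and 3.28 FPKM against 2.72 and 2.55, and 1.81 and 2.00 against 1.58 and 1.56 after 5-aza. Both targeted genes were thus lower in DKO in both tables without being absent; the authors' deposited table gives adjusted p = 1.8e-07 and 1.48e-09 for Tet3, and 0.2999 and 0.4004 for Tet2. Keratinocyte genes of the matrix and follicle were present in all libraries (10 markers, summed 585.7 to 1233 FPKM), and so were markers of fibroblasts (63.96 to 1460 FPKM) and dermal papilla (23.29 to 295.6 FPKM). Xist was 82.1 and 74.4 FPKM in untreated replicates 1 and 0.327 and 1.19 FPKM in replicates 2. After 5-aza Xist was 16.9 and 23.1 FPKM in WT and 4.60 and 3.65 in DKO, and Y-linked Ddx3y was 1.24 and 0.917 FPKM in WT and 2.08 and 2.00 in DKO. Each genotype comparison after 5-aza below is thus also one between libraries that differ in these sex-linked genes.

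The first question is whether loss of Tet2 and Tet3 moved imprinted genes in untreated matrix cells. With limma on log2(FPKM + 1), 37 of the 43 members could be tested and 0 passed an adjusted p under 0.05, where 1 gene of 17339 did (0.00577%). Under an unadjusted p of 0.05 were 3 of 37 members (8.11%), H19 higher and Rian and Plagl1 lower in DKO; over all genes 11.5% were. The authors' deposited table, from their count model, calls the same 3 at an adjusted p under 0.05 among 43 rows (6.98%), where 379 of 29647 genes (1.28%) are called. The signs leaned to one side: 9 members had a positive and 28 a negative difference of DKO minus WT, with a median of -0.07 log2 units, and 46.2% of all genes were negative with a median of 0.01. Scaled to reads in listed genes they split 7 to 30 (52.6% of all genes negative), and without WT replicate 2 they split 16 to 21 (39.0% of all genes negative). The WT and DKO libraries did not overlap for 18 of 37 members (48.6%), 5 higher and 13 lower, and for 43.4% of all genes tested.

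After 5-aza, 39 members could be tested and 0 passed, as did 0 of 16856 genes (0%). H19, Igf2 and Dcn, all higher in DKO, had an unadjusted p under 0.05 (3 of 39, 7.69%; 8.94% of all genes, 1120 higher and 387 lower, or 741 and 707 when scaled to reads in listed genes). The authors' deposited table calls 1 member, H19, of 42 rows (2.38%) and 207 of 29246 genes with FPKM (0.708%). Of the members, 18 had a positive and 21 a negative difference (53.8% negative), with a median of -0.01, where 37.2% of all genes were negative, with a median of 0.03. Scaled to reads in listed genes, 23 of 39 members and 56.1% of all genes were negative. Groups did not overlap for 11 of 39 members (28.2%) and for 39.6% of all genes. The interaction, which asks whether the genotype difference is another after 5-aza, gave 0 members of 37 and 3 genes of 15699 (0.0191%) past the threshold. Dlk1 alone had an unadjusted p under 0.05 (2.70% of the members tested; 5.61% of all genes).

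**Figure D1:**
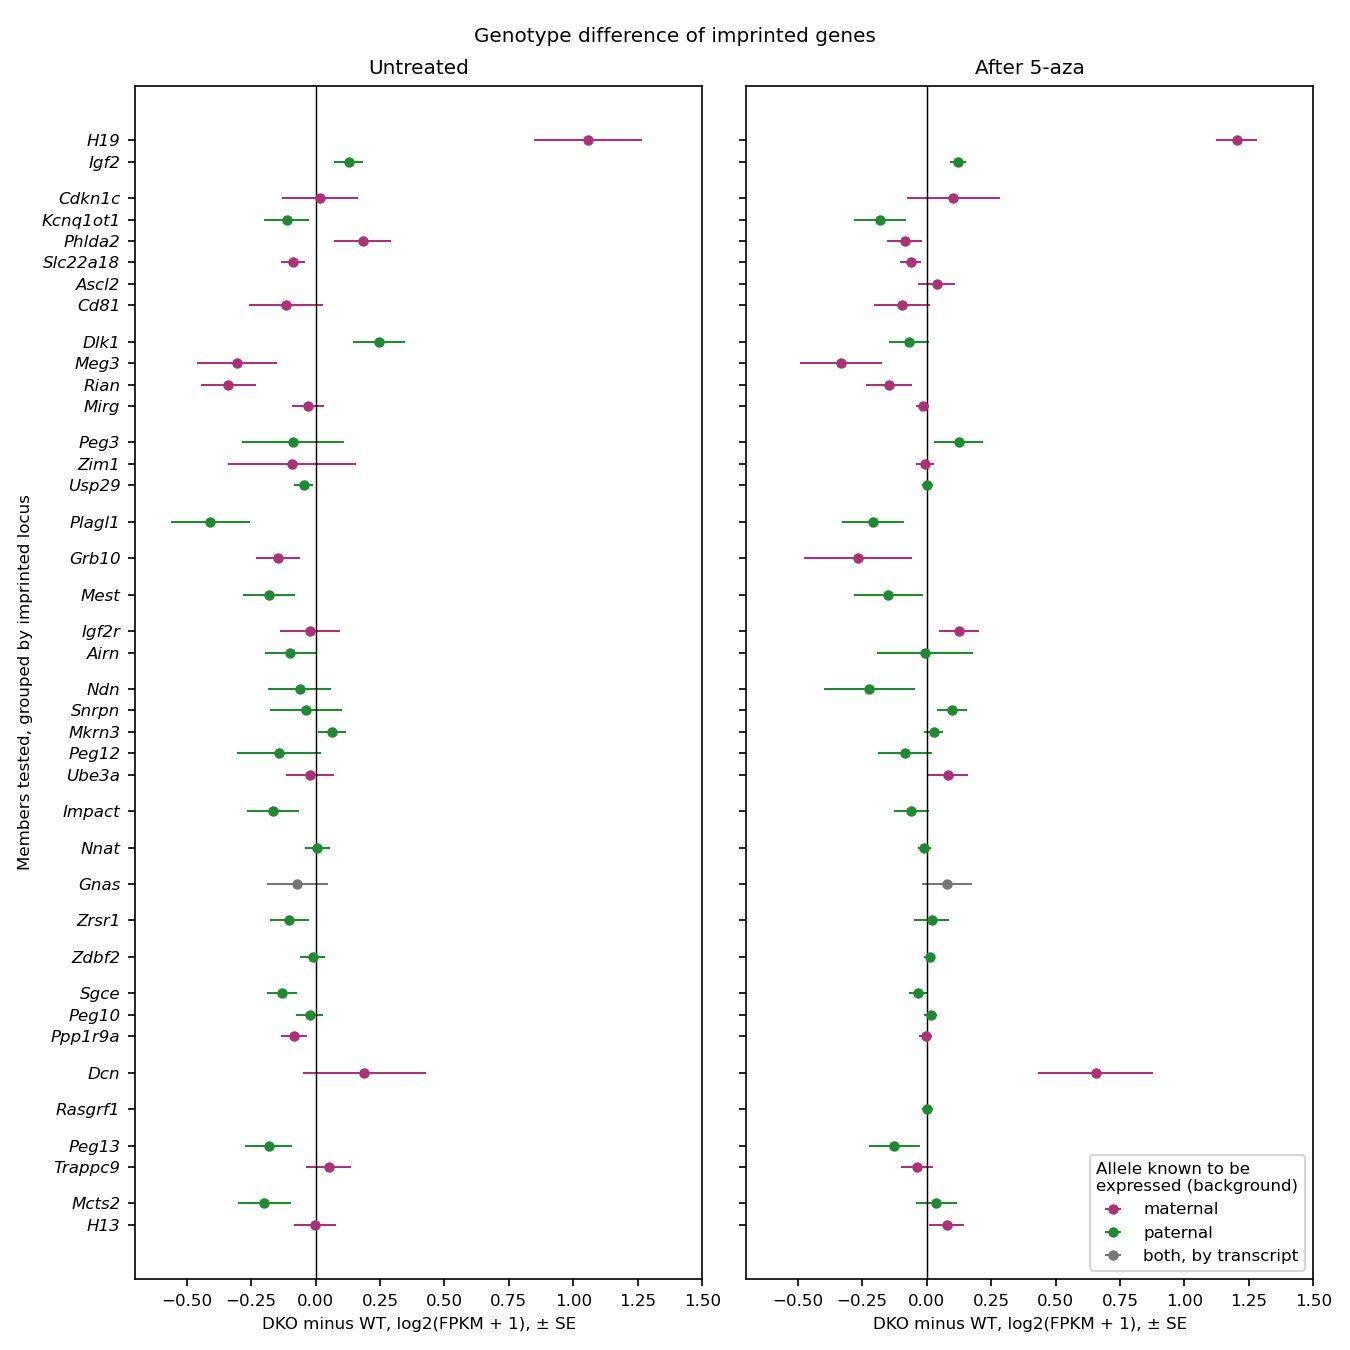
Difference of DKO minus WT in log2(FPKM + 1), ± SE from limma, for each member tested, untreated on the left and after 5-aza on the right; genes are grouped by locus and coloured by the allele known to be expressed. H19 stands at 1.06 and 1.20, Dcn at 0.19 and 0.66, and Plagl1, Rian and Meg3 at the negative end of the untreated panel (-0.41, -0.34 and -0.305).

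H19 is the maternally expressed noncoding RNA of a locus on chromosome 7 (142575529 to 142578143, minus strand, GRCm38), next to Igf2, the paternally expressed insulin-like growth factor; both are controlled by a region upstream of H19 that is methylated on the paternal allele and bound by CTCF on the maternal one. H19 was 10.3 and 15.3 FPKM in untreated WT and 24.8 and 29.8 FPKM in DKO, and 9.40 and 8.90 FPKM in WT and 23.2 and 21.5 FPKM in DKO after 5-aza. Every DKO library lay above every WT library, 2.14-fold by the means of the untreated groups and 2.44-fold after 5-aza. The limma difference was 1.06 ± 0.21 (SE) untreated and 1.20 ± 0.08 after 5-aza, with adjusted p = 0.224 and 0.209 (limma over all genes; 2 libraries a group). In the authors' deposited table the log2 ratio was 1.08 (adjusted p = 4.71e-09) and 1.22 (1.15e-26). Voom on the recovered reads gave H19 an adjusted p of 0.0465 in the untreated libraries, and the alternatives together ranged from 0.0465 to 0.886.

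The H19 difference was present in the untreated pair with high Xist (1.19 log2 units between replicates 1) and in the pair with low Xist (0.921 between replicates 2). After 5-aza both Xist and Ddx3y part the genotypes, so there the H19 difference and a difference in sex between the libraries cannot be told apart. The same limit holds for every other gene compared between genotypes after 5-aza, and for the interaction. The interaction was 0.15 ± 0.25 (adjusted p = 0.974), so a change of the H19 difference by 5-aza was not detected. Markers of matrix and follicle keratinocytes moved the same way: their summed FPKM was 585.7 and 697.3 in untreated WT against 1050 and 1233 in DKO, and 586.7 and 586.6 against 763.7 and 815.6 after 5-aza. Of these 10 markers, 10 were positive untreated and 9 after 5-aza, where 46.2% and 37.2% of all genes were negative. The authors' deposited table calls 5 of them higher untreated and 4 after 5-aza (1.28% and 0.708% of all genes are called). There Dlx3 is slightly negative in both comparisons, and Krt71 is negative after 5-aza. The part of this marker shift in the H19 values was not tested.

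Igf2 was near the lower end of what these libraries measure. It was 0.0341 and 0.0904 FPKM (14 and 37 reads) in untreated WT and 0.115 and 0.208 FPKM (46 and 73 reads) in DKO. After 5-aza it was 0.0614 and 0.0316 FPKM (52 and 26 reads) in WT and 0.154 and 0.122 FPKM (109 and 128 reads) in DKO. The groups did not overlap in either table, and the DKO mean was 2.60-fold and 2.97-fold the WT mean, so Igf2 and H19 lay on the same side of WT. The limma difference was 0.13 ± 0.06 untreated and 0.12 ± 0.03 after 5-aza, which the added constant of 1 FPKM makes small, and the adjusted p (limma) was 0.484 and 0.437; the authors' deposited table has adjusted p = 0.5474 and 0.1308. Per exon-union length, H19 stood at 45.2 ± 12.4 (SD, n = 2) in untreated WT and Igf2 at 0.195. The annotated exons of Igf2 overlap those of Gm49394 on the same strand over 62.8% of their length, so reads there may be counted for neither gene; Gm49394 had 3 to 6 reads in the 5-aza libraries.

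**Figure D2:**
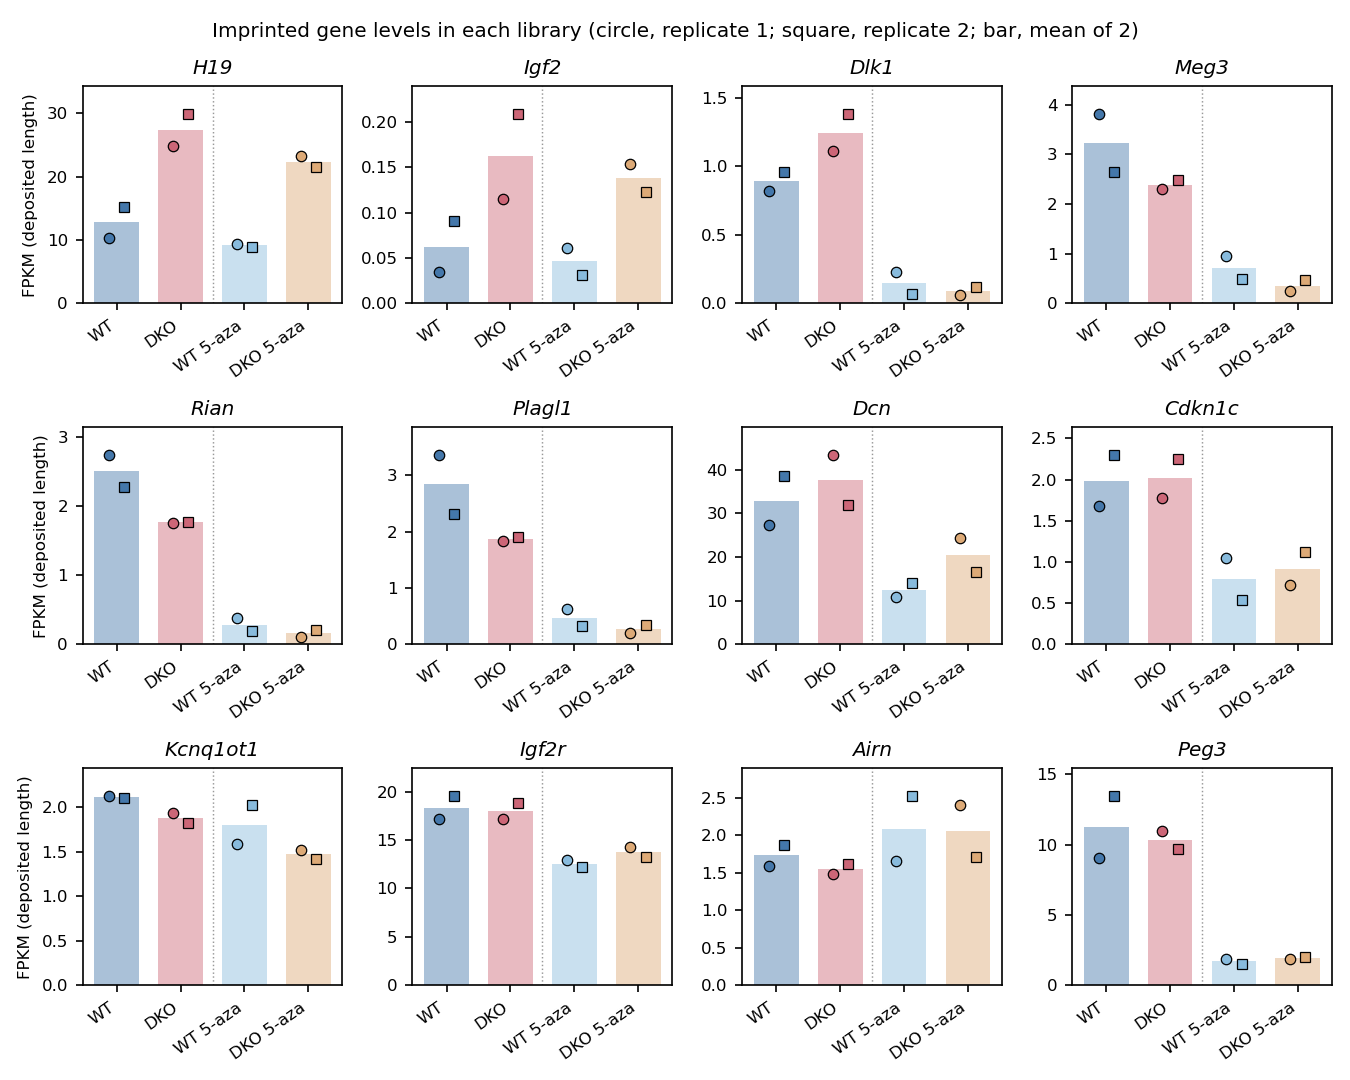
FPKM, per the deposited gene length, of 12 imprinted genes in each of the 8 libraries; circles are replicate 1, squares replicate 2, bars the mean of 2, and the dotted line parts the separately normalized tables. H19 shows DKO libraries above all WT libraries in both tables (24.8 and 29.8 against 10.3 and 15.3 FPKM untreated), while Igf2r, Airn and Cdkn1c overlap between untreated genotypes.

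The Dlk1-Dio3 domain on chromosome 12 carries paternally expressed Dlk1, a membrane ligand of the Notch type, and Rtl1, and on the maternal allele a run of noncoding RNAs, Meg3, Rian (host of small nucleolar RNAs) and Mirg (host of miRNAs), under 1 intergenic DMR. In the untreated libraries Meg3 and Rian lay lower and Dlk1 higher in both DKO libraries than in both WT libraries, none of them with an adjusted p under 0.05 in limma, and Mirg overlapped. Meg3 (chromosome 12, 109541001 to 109571726) was 3.81 and 2.65 FPKM in WT and 2.29 and 2.49 in DKO. Rian was 2.74 and 2.28 FPKM in WT and 1.76 and 1.78 in DKO. Dlk1 was 0.823 and 0.960 FPKM in WT and 1.11 and 1.38 in DKO. The genotypes did not overlap for any of these 3 genes, although WT replicate 2 of Meg3 lay close to DKO replicate 2.

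The limma differences were -0.34 ± 0.11 for Rian (adjusted p = 0.361), -0.305 ± 0.156 for Meg3 (adjusted p = 0.537) and 0.25 ± 0.10 for Dlk1 (adjusted p = 0.461). The authors' deposited table calls Rian (log2 ratio -0.54, adjusted p = 0.0463) and neither Meg3 (0.3256) nor Dlk1 (0.5228). Mirg was 0.303 and 0.180 FPKM in WT and 0.217 and 0.213 in DKO (-0.03 ± 0.06, adjusted p = 0.907, limma). Rtl1, with 2 to 4 reads a library, was not tested.

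The tables were normalized separately, and differences between them were not tested. In the 5-aza table all these RNAs had lower mean FPKM than untreated, as had 85.7% of all genes in WT and 85.8% in DKO. Meg3 was 0.944 and 0.489 FPKM in WT and 0.246 and 0.464 in DKO, Rian was 0.386 and 0.188 against 0.113 and 0.208, and Dlk1 was 0.227 and 0.0674 against 0.0631 and 0.120. Dlk1 and Rian overlapped between genotypes, and for Meg3 the gap between the lower WT and the higher DKO library was small against the spread within each genotype. The limma differences were -0.33 ± 0.16 for Meg3, -0.15 ± 0.09 for Rian and -0.07 ± 0.08 for Dlk1 (adjusted p = 0.636, 0.711 and 0.849). The Dlk1 interaction was -0.31 ± 0.13 (adjusted p = 0.883), and without WT 5-aza replicate 1 the Dlk1 difference after 5-aza was 0.03.

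At the far end of the domain, Dio3os and Dio3 were read from a second list of imprinted genes. Dio3 encodes the deiodinase that inactivates thyroid hormone, and Dio3os is the divergent noncoding RNA next to it; their annotated exons do not overlap. Dio3os had 3 and 1 reads in untreated WT and 97 and 82 reads in DKO, or 0.0447 and 0.0149 against 1.49 and 1.43 FPKM. After 5-aza it had 1 and 1 reads in WT and 17 and 45 in DKO, or 0.0072 and 0.0074 against 0.147 and 0.262 FPKM. Per library total, the DKO to WT ratio of reads was 48.9 untreated (95% counting interval 18.8 to 181.5) and 29.5 after 5-aza (7.82 to 248.7), intervals that cover counting error only. The limma difference was 1.26 ± 0.06 untreated (adjusted p = 0.0606) and 0.26 ± 0.05 after 5-aza (adjusted p = 0.389). In both tables Dio3os reached the read filter of limma through the DKO libraries alone, so these tests are not free of that selection. The authors' deposited table calls it untreated (log2 ratio 5.58, adjusted p = 4.52e-08) and not after 5-aza (4.75, 0.05874).

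Dio3os entered the interaction fit through the DKO libraries alone. With 4 WT reads in all untreated and 2 after 5-aza, WT lies near 0 on the log2(FPKM + 1) scale in both tables. The term thus mostly follows the lower DKO level in the separately normalized 5-aza table, a contrast that was not tested. The Dio3os interaction passed the threshold with limma, at -0.999 on that scale (adjusted p = 0.0249). On a scale with 0.1 FPKM added it was -2.12 with adjusted p = 0.631, and it did not pass when any of 7 of the 8 libraries was left out, the exception being DKO 5-aza replicate 2. Dio3 had 2 and 9 reads in untreated WT and 32 and 20 in DKO, a ratio of 5.17 (2.66 to 10.98), with adjusted p = 0.226 (limma). Untreated Dio3 likewise reached the read filter through DKO alone. After 5-aza Dio3 had 9 and 2 reads against 6 and 15 and was too low to be tested.

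**Figure D3:**
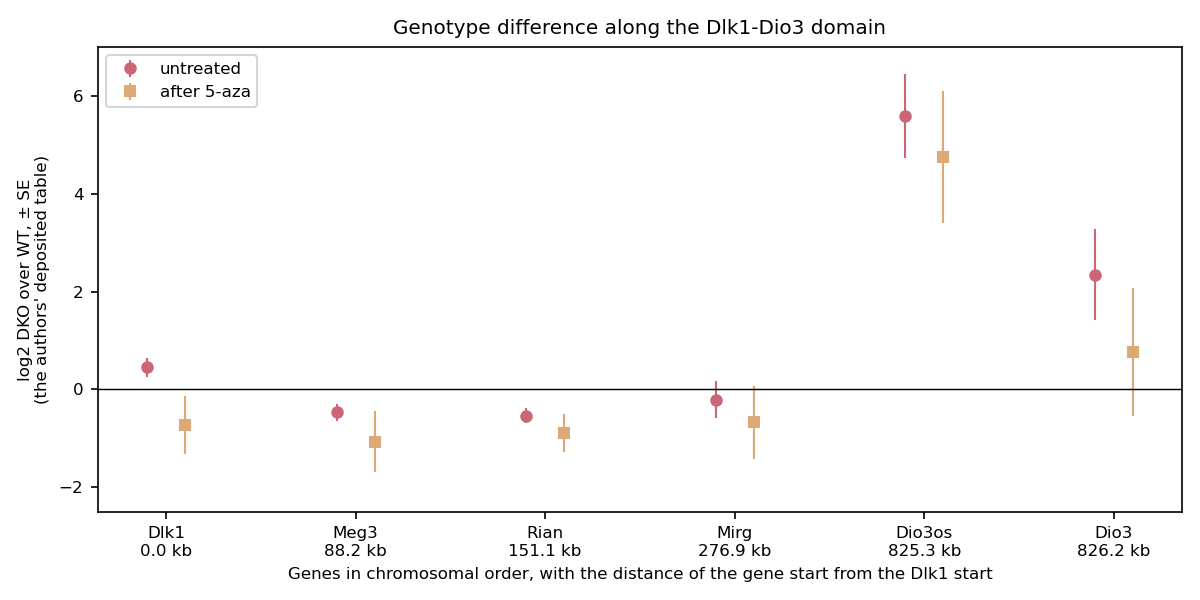
Log2 ratio of DKO to WT with its SE from the authors' deposited table (sign reversed) for 6 genes of the Dlk1-Dio3 domain in chromosomal order, circles untreated and squares after 5-aza. Dio3os stands at 5.58 and 4.75, 825.3 kb from Dlk1, while Meg3 and Rian are at or below -0.47 in both tables and Dlk1 changes sign (0.46 and -0.73).

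Plagl1, a paternally expressed zinc finger factor with a DMR at its promoter on chromosome 10 (13060504 to 13131694), was, beside Rian, the other member lower in untreated DKO at an unadjusted p under 0.05 in limma. It was 3.35 and 2.32 FPKM in WT and 1.84 and 1.90 in DKO, a WT mean 1.52-fold the DKO mean, and the groups did not overlap. The limma difference was -0.41 ± 0.15 (adjusted p = 0.430), and the authors' deposited table has -0.64 (adjusted p = 0.04726). Without WT replicate 1 the Plagl1 difference was -0.21 and that of Meg3 was -0.11. After 5-aza Plagl1 was 0.622 and 0.320 FPKM in WT and 0.199 and 0.337 in DKO, which overlapped (-0.21 ± 0.12, adjusted p = 0.692).

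Dermal papilla markers moved together with Plagl1, Meg3 and Rian. In the untreated libraries all 10 were lower in DKO, where 46.2% of all genes were. An unadjusted p under 0.05 was reached by 8 of them in limma (80.0%, where 11.5% of all genes did). The summed FPKM of the 10 was 295.6 and 290.7 in WT against 174.1 and 163.3 in DKO. Fibroblast markers did not follow the genotype, at 548.1 and 1388 FPKM in WT and 1460 and 1227 in DKO. Neither list had a marker at 0. In bulk RNA, fewer cells of a type and less RNA per cell cannot be told apart, and the part of dermal papilla RNA in the 3 genes was not tested.

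In the 5-aza libraries these genes also differed between the 2 libraries of each genotype. WT replicate 1 lay above WT replicate 2, and DKO replicate 2 above DKO replicate 1, for 22 of the 39 members tested (56.4%) and for 35.4% of all genes. Meg3 was 1.93-fold and 1.89-fold higher in those libraries, beside a WT mean 2.02-fold the DKO mean, Rian 2.05-fold and 1.85-fold (WT mean 1.79-fold the DKO mean), Plagl1 1.94-fold and 1.69-fold (WT mean 1.76-fold the DKO mean), Grb10, an adaptor that restrains insulin and IGF receptors, 2.41-fold and 2.05-fold, and Mest, a hydrolase fold protein, 3.55-fold and 2.42-fold. Fibroblast, dermal papilla and melanocyte markers had that order for 10 of 10 genes each. Summed fibroblast FPKM was 156.3 and 63.96 in WT and 85.88 and 146.8 in DKO, dermal papilla 109.6 and 44.45 against 23.29 and 51.66, and melanocyte 103.0 and 23.14 against 30.76 and 147.6. The part of these cells in the members' values was not tested. Without WT 5-aza replicate 2, 10 of 39 members had an unadjusted p under 0.05 (25.6%; 6.22% of all genes, 588 higher and 461 lower), 8 of them lower in DKO.

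**Figure D4:**
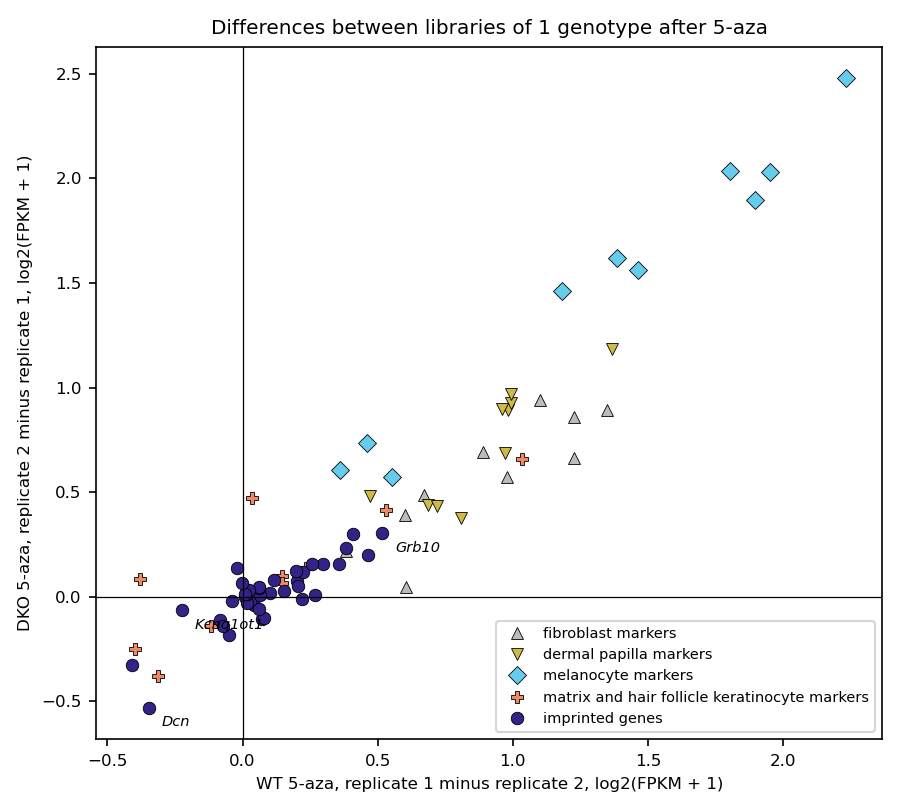
Differences between libraries of 1 genotype after 5-aza in log2(FPKM + 1): WT replicate 1 minus replicate 2 on the x axis and DKO replicate 2 minus replicate 1 on the y axis, 1 point a gene. All 30 fibroblast, dermal papilla and melanocyte markers and 22 of 39 imprinted genes lie in the upper right quadrant, and Dcn lies in the lower left quadrant.

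Dcn encodes decorin, a matrix proteoglycan made by fibroblasts, and is imprinted in the placenta. It was 27.3 and 38.6 FPKM in untreated WT and 43.3 and 31.9 in DKO, which overlapped, and 10.9 and 14.1 against 24.4 and 16.6 after 5-aza, which did not. The limma difference after 5-aza was 0.66 ± 0.22 (adjusted p = 0.527; the authors' deposited table, 0.1846). Its order within the 5-aza genotypes was opposite to that of the fibroblast markers: WT replicate 2 was above WT replicate 1, and DKO replicate 1 above DKO replicate 2.

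The Kcnq1ot1 locus on chromosome 7 pairs the paternal noncoding RNA Kcnq1ot1 with maternal genes it silences in cis, among them Cdkn1c, the cell cycle inhibitor p57. Kcnq1ot1 was 2.12 and 2.10 FPKM in untreated WT and 1.94 and 1.82 in DKO, and 1.59 and 2.02 against 1.52 and 1.41 after 5-aza. The DKO libraries were the lower ones in both tables, by differences (-0.11 ± 0.09 and -0.18 ± 0.10) that did not pass (adjusted p = 0.702 and 0.688, limma). Cdkn1c was 1.68 and 2.29 FPKM in WT and 1.78 and 2.25 in DKO, and 1.05 and 0.543 against 0.721 and 1.12 after 5-aza. Its groups overlapped in both tables; 30.7% of its exonic length overlaps Gm44732 on the other strand. Cd81, a tetraspanin imprinted in placenta, was 17.0 and 21.8 FPKM in WT and 18.0 and 17.4 in DKO, and 10.2 and 8.35 against 8.56 and 8.62 after 5-aza, overlapping in both.

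At the Igf2r locus on chromosome 17, the maternal receptor Igf2r removes IGF2 from the cell surface and the paternal noncoding RNA Airn starts in an Igf2r intron. Igf2r was 17.1 and 19.5 FPKM in untreated WT and 17.2 and 18.9 in DKO, and 12.9 and 12.2 against 14.3 and 13.3 after 5-aza. The untreated groups overlapped and the DKO libraries after 5-aza were both higher, by 0.12 ± 0.08 (adjusted p = 0.716, limma). Airn was 1.60 and 1.88 FPKM against 1.49 and 1.62 untreated, and 1.65 and 2.52 against 2.41 and 1.72 after 5-aza. Airn overlapped between genotypes in both tables.

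Among the zinc finger genes of the Peg3 locus, paternal Peg3 was 9.03 and 13.4 FPKM in untreated WT and 11.0 and 9.68 in DKO, and 1.90 and 1.51 against 1.89 and 2.00 after 5-aza. Maternal Zim1 was 1.20 and 2.59 FPKM against 1.78 and 1.499, and 0.151 and 0.102 against 0.118 and 0.124. Both overlapped in both tables, with WT libraries spread more widely than the genotype means.

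In the Snrpn-Ube3a region, Ndn, a MAGE family protein, was 5.12 and 5.98 FPKM in untreated WT and 5.73 and 4.83 in DKO, and 0.941 and 0.408 against 0.322 and 0.520 after 5-aza. Snrpn, a spliceosomal protein gene, was 0.483 and 0.429 FPKM against 0.237 and 0.629, and 0.197 and 0.214 against 0.229 and 0.352. Ube3a, a ubiquitin ligase imprinted in neurons, was 2.61 and 2.86 FPKM against 2.80 and 2.56, and 1.28 and 1.42 against 1.58 and 1.39. Of these 3 genes only Snrpn after 5-aza was free of overlap (0.10 ± 0.06, adjusted p = 0.701, limma). Snrpn shares 27.3% of its exonic length with Gm38393 on its own strand, and Ube3a 27.3% with genes on the other strand.

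At the H13-Mcts2 and Trappc9-Peg13 loci a paternal gene lies within an intron of another gene. Mcts2, a retrocopy of X-linked Mcts1 whose reads the counting could split between the copies, was 5.43 and 6.36 FPKM in untreated WT and 5.04 and 4.95 in DKO, and 5.19 and 5.51 against 5.84 and 5.21 after 5-aza. H13, the signal peptide peptidase, was 3.91 and 3.90 FPKM against 3.87 and 3.92, and 2.77 and 2.61 against 2.97 and 2.82. Paternal Peg13, a noncoding RNA within Trappc9, was 3.94 and 4.37 FPKM against 3.52 and 3.57, and 1.47 and 1.16 against 1.03 and 1.21. Trappc9, a subunit of a vesicle tethering complex, was 2.12 and 2.16 FPKM against 2.18 and 2.33, and 0.901 and 0.904 against 0.812 and 0.896. Untreated Mcts2 and Peg13 were both lower in DKO without overlap (-0.20 ± 0.10 and -0.18 ± 0.09), and neither passed (adjusted p = 0.539 and 0.531, limma).

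Gnas, the stimulatory G protein alpha subunit, was 7.19 and 8.83 FPKM in untreated WT and 7.64 and 7.45 in DKO, and 3.67 and 3.01 against 3.59 and 3.55 after 5-aza. Impact, an inhibitor of the kinase GCN2, was 4.25 and 3.66 FPKM against 3.30 and 3.53, and 2.36 and 2.22 against 2.11 and 2.20. Gnas overlapped in both tables, and Impact was lower in DKO in both without passing (-0.16 ± 0.10 and -0.06 ± 0.07; adjusted p = 0.615 and 0.850, limma). The other 20 members had no unadjusted p under 0.05 in any of the 3 comparisons. Of them, 14 were tested untreated, 3 higher and 11 lower, from -0.18 (Mest) to 0.18 (Phlda2), and 16 after 5-aza, 7 higher and 9 lower, from -0.27 (Grb10) to 0.04 (Ascl2). Rtl1, Magel2, Nap1l5 and Asb4 were too low to be tested in either comparison, and Ascl2 and Rasgrf1 could be tested after 5-aza only.

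By expressed allele, 5 of 16 maternal members tested were higher and 11 lower in untreated DKO (median -0.03). Of 20 paternal members, 4 were higher and 16 lower (median -0.09). That is 68.8% and 80.0% lower, where 75.7% of all members and 46.2% of all genes were. After 5-aza the counts were 7 and 10 for maternal members and 10 and 11 for paternal members, with medians of -0.01 for both. That is 58.8% and 52.4% lower, where 37.2% of all genes were. A difference between the alleles was not tested. Of the neighbour pairs, Meg3 and Dlk1 and also Peg13 and Trappc9 had differences of opposite sign in untreated DKO, the maternal RNA being the negative one in the first pair and the paternal one in the second. H19 and Igf2 were both positive under each scaling tried. Both negative were Igf2r and Airn (-0.02 ± 0.12 and -0.10 ± 0.10) and Peg3 and Zim1 (-0.09 ± 0.20 and -0.09 ± 0.25). So were H13 and Mcts2 (-0.002 ± 0.082 and -0.20 ± 0.10) and Snrpn and Ube3a (-0.04 ± 0.14 and -0.02 ± 0.09). Each of these negative differences but that of Mcts2 was smaller than its SE. The other scalings lowered all of these values, so they could not turn a negative sign. Cdkn1c was positive and Kcnq1ot1 negative, but with scaling to reads in listed genes Cdkn1c turned negative too.

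Per exon-union length, Dcn and H19 were the most abundant members in untreated WT, at 50.6 ± 12.3 and 45.2 ± 12.4 (SD, n = 2), followed by Cd81 at 39.5 ± 6.77 and Gnas at 35.1 ± 5.09, neighbours that do not differ beyond their spread. Igf2r at 19.5 ± 1.77 stood below them, and Peg3 at 14.7 ± 4.08, Mest at 9.64 ± 0.369 and Grb10 at 9.35 ± 0.411 came next. In untreated DKO, H19 led at 96.6 ± 12.5 and Dcn followed at 57.7 ± 12.4. H19 also led after 5-aza, at 32.3 ± 1.25 in WT and 79.0 ± 4.31 in DKO.

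The untreated and 5-aza tables were normalized separately and differ in the share of reads in listed genes, so their levels are set side by side with no test. Of the 37 members tested in both, 35 had a lower mean FPKM in the 5-aza table in WT and 34 in DKO, where 85.7% and 85.8% of all genes did. The median ratio of 5-aza to untreated was 0.400 for members in WT and 0.379 in DKO, and 0.657 and 0.673 for all genes. Scaled to reads in listed genes, these medians were 0.609 and 0.554 for members and 0.997 and 0.984 for all genes. Of the members tested in both, Zim1 had the lowest ratio in WT (14.96-fold lower, and 13.55-fold in DKO) and Mest the lowest in DKO (18.6-fold lower, and 11.6-fold in WT). Rian was 8.74-fold and 11.0-fold lower, Ndn 8.23-fold and 12.5-fold and Dlk1 6.05-fold and 13.6-fold, in WT and DKO. In FPKM as deposited, H19, Igf2, Kcnq1ot1 and Mcts2 were within 1.4-fold in both genotypes, and Airn was 1.20 and 1.33 times its untreated level. These stand beside medians of 0.657 and 0.673 for all genes. The ratios of single genes given here were not scaled to reads in listed genes. Fibroblast and dermal papilla sums were lower in the 5-aza table too (63.96 to 156.3 against 548.1 to 1460 FPKM, and 23.29 to 109.6 against 163.3 to 295.6), and their part in the members' ratios was not tested.

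**Figure D5:**
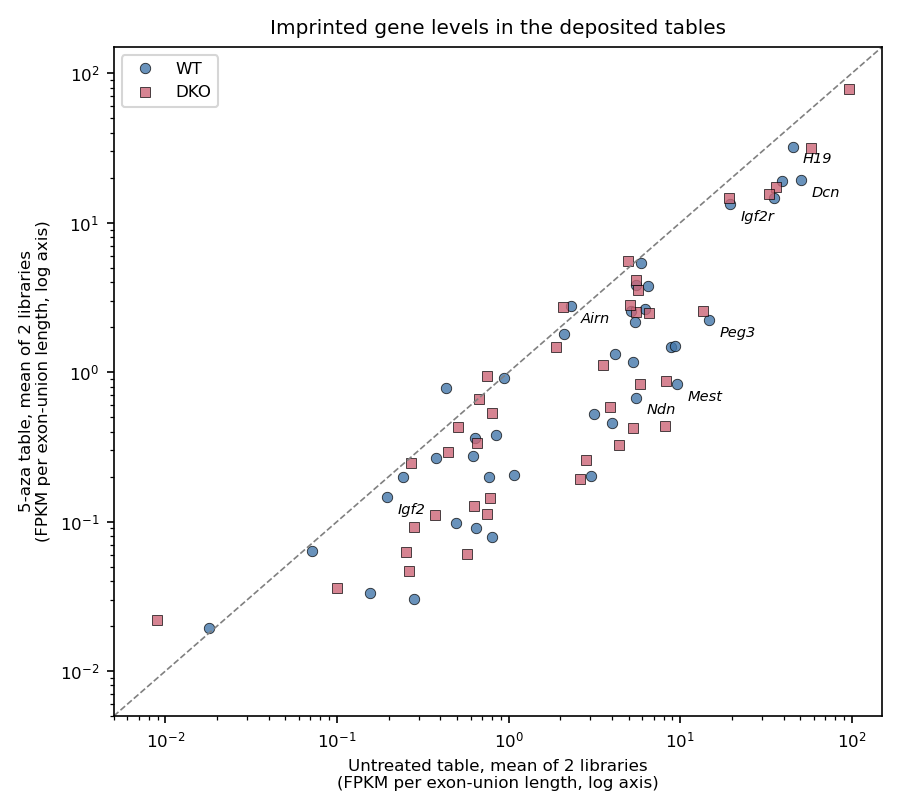
Mean FPKM per exon-union length of each member in the untreated table (x axis, log) against the 5-aza table (y axis, log), circles WT and squares DKO, with the dashed line of equal values. Most members lie below the line, Mest and Ndn far below it, and Airn and Igf2 close to it.

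Beyond the members, 25 of 42 other imprinted genes were tested untreated, 16 higher and 9 lower (36.0% negative, where 46.2% of all genes were). Of these, 3 had an unadjusted p under 0.05 (12.0%, where 11.5% of all genes did), all higher in DKO: Dio3os, Dio3 and Atp10a. Untreated Dio3, and Dio3os in both tables, reached the read filter through DKO alone, so their tests rest on the group in which they are high. Atp10a, a phospholipid flippase, was 1.504 and 2.30 FPKM in WT and 3.22 and 2.78 in DKO, and 0.693 and 0.431 against 1.37 and 1.34 after 5-aza. The DKO libraries were higher in both tables (0.47 ± 0.16, adjusted p = 0.397, and 0.60 ± 0.10, adjusted p = 0.344, limma), and the authors' deposited table calls Atp10a after 5-aza only (adjusted p = 0.2719 and 0.005011). After 5-aza 23 of these genes were tested, 17 higher and 6 lower, and Dio3os and Atp10a had an unadjusted p under 0.05 (8.70%; 8.94% of all genes).

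Of 24 factors that maintain or reset imprints, 21 were tested untreated, 3 higher and 18 lower, and 22 after 5-aza, 14 higher and 8 lower. That is 85.7% lower untreated and 36.4% after 5-aza, where 46.2% and 37.2% of all genes were. The 18 lower ones untreated include the targeted Tet2 and Tet3. The untreated lean was not shared by the replicates. The median difference of these factors was 0.01 between replicates 1 and -0.15 between replicates 2 (0.04 and -0.01 over all genes). At an unadjusted p under 0.05 were Tet2 and Tet3, the targeted genes, untreated (9.52% of those tested, 11.5% of all genes). After 5-aza Tet3 alone was (4.55%, where 8.94% of all genes were). Tet1, the third dioxygenase, was 0.940 and 0.936 FPKM in untreated WT and 0.765 and 0.750 in DKO, and 0.301 and 0.269 against 0.319 and 0.332 after 5-aza; its interaction had adjusted p = 0.845 (limma).

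The IGF pathway list held 17 genes, 15 of them tested in each table: 5 higher and 10 lower in untreated DKO, and 12 higher and 3 lower after 5-aza. Thus 66.7% were lower untreated and 20.0% after 5-aza, where 46.2% and 37.2% of all genes were. Igfbp5, an IGF binding protein, was 38.6 and 48.5 FPKM in untreated WT and 30.1 and 24.9 in DKO (-0.64 ± 0.17, adjusted p = 0.310, limma; 6.42e-05 in the authors' deposited table). After 5-aza Igfbp5 was 10.1 and 4.31 FPKM against 5.38 and 8.26, in the same library order as the fibroblast markers. Irs2, an adaptor of insulin and IGF receptors, was 9.57 and 9.20 FPKM against 10.1 and 10.7 untreated and 4.60 and 4.03 against 7.21 and 6.45 after 5-aza, and the authors' deposited table calls it after 5-aza (log2 ratio 0.60, adjusted p = 0.004481). Igf2bp2, which binds Igf2 messenger RNA, was 0.923 and 0.663 FPKM against 0.502 and 0.454 untreated (adjusted p = 0.389, limma). With Irs2, the genes Igf1r, Irs1 and Igfbp2 were higher in DKO after 5-aza at an unadjusted p under 0.05 (4 of 15, 26.7%, where 8.94% of all genes were; adjusted p = 0.538, 0.534 and 0.460 for the last 3, limma).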

How the data were processed

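RNA-seq values of 8 libraries, 2 in each of 4 groups, were used. The submitters' processing notes list HTSeq, STAR, Trim Galore and the authors' DESeq2, with builds mm10 and GRCm38; strand setting and annotation are not given in the sources used here. The labels name an mRNA library kit and the design text a stranded total RNA kit, neither tied to a group. The authors deposited 2 tables. The authors made the library columns as FPKM, reads per kilobase of gene length and per library total, a unit inferred from the deposited values: times length, they are whole multiples of 1 step per library, which gives back reads and totals. A deposited signal column gives mean reads over size factors. The deposited fold changes and SEs are log2 values of WT over DKO and were turned round. A deposited score column is the statistic of the authors' DESeq2 test. Raw and adjusted results of that test stand in deposited p-value columns. The deposited length, of unit other, equals the sum of all exon records (end minus start) of GENCODE M21 for 97.6% and 97.5% of matched genes; its median ratio to the exon-union length was 1.17 and 1.19, and 3.53 for H19. HTSeq classes that name no gene held 40.4% and 59.9% of mean reads and stayed out.

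From these, limma (3.58.1, R 4.3.3; eBayes with a trend) was run on log2(FPKM + 1), which understates changes of low genes, for genes with 15 reads or more in total and 10 or more, at the median depth, in 2 libraries; tests were two-sided, p-values were adjusted by Benjamini-Hochberg over all genes tested, threshold 0.05. No count model was the main test, since the values are FPKM. The procedure was checked on simulated data. Same-numbered WT and DKO libraries had deviations correlated at 0.032 untreated and -0.589 after 5-aza, so numbers were not taken to pair libraries.

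Members, loci, alleles and lists came from textbook knowledge and were chosen with earlier results of these data known. Of the members, 23 are given with every library: those with an unadjusted limma p under 0.05 in any comparison or an authors' adjusted p under 0.05 (6), the 10 with the highest mean FPKM, and the 16 of 8 neighbour pairs, these sets overlapping; of the other lists, those with such a p. Alternatives were another pseudocount, filters, scalings, no trend, voom on recovered reads, 1 fit of all libraries, a replicate block and leaving out each library; exon-union length and a crossed pairing were added after seeing the data.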

Additional observations from a re-analysis of the deposited data

Results flagged for a closer look

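Dio3os was the imprinted gene whose genotype difference was another after 5-aza by the interaction test of limma (-0.999 on the log2(FPKM + 1) scale, adjusted p = 0.0249). It had 3 and 1 reads in untreated WT, 97 and 82 in untreated DKO, 1 and 1 in WT after 5-aza and 17 and 45 in DKO after 5-aza. Dio3os reached the filter of 10 reads in 2 libraries through DKO alone, so its interaction test rests on the group in which it is high. WT lies near 0 on that scale in both tables. The term thus mostly follows the DKO level between separately normalized tables, a contrast that was not tested. The DKO to WT ratios per library total, 48.9 (18.8 to 181.5) and 29.5 (7.82 to 248.7), have counting intervals that overlap. Groups of 2 libraries are too small for a test of single outlying libraries.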

How the results depend on the processing

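Across 14 alternatives untreated and 15 after 5-aza, H19 was higher in DKO in each, by 0.794 to 1.319 and 1.118 to 1.28. The number of members with an adjusted p under 0.05 was 0 with limma as planned and went to 1 with voom on recovered reads untreated (H19) and to 1 with the crossed pairing of 5-aza libraries (H19), and was 0 in the other alternatives of the 3 comparisons. The crossed pairing, chosen after the data were seen because same-numbered deviations correlated at -0.589, called 91 genes, 57 higher and 34 lower. With the replicate number as a block, 0 members passed in any comparison, and 13 genes untreated, 0 after 5-aza and 0 in the interaction; the Dio3os interaction then had adjusted p = 0.373. Over all genes untreated, 1 call became 8 with a constant of 0.1, 77 with voom, 37 with exon-union length, 111 in 1 fit of all libraries and 0 without any 1 library.

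With a constant of 0.1 the interaction changed sign for Igf2 (0.015), Rian (-0.073) and Plagl1 (-0.049), none of which passed. Leaving out 1 library at a time gave ranges that crossed 0 for Dcn untreated (-0.052 to 0.432), Dlk1 after 5-aza (-0.169 to 0.032) and the interactions of H19 (-0.116 to 0.409), Igf2 (-0.065 to 0.05), Meg3 (-0.227 to 0.171) and Atp10a (-0.076 to 0.323). They crossed 0 for Cdkn1c in all 3 comparisons (-0.133 to 0.166 untreated, -0.1 to 0.308 after 5-aza, -0.117 to 0.291 for the interaction), and untreated Cdkn1c was -0.006 scaled to reads in listed genes and -0.025 with voom. Members with an unadjusted p under 0.05 numbered 2 to 7 untreated, 2 to 10 after 5-aza and 0 to 3 in the interaction over all alternatives. At 14 to 128 reads for Igf2 and 1 to 97 for Dio3os, depth limits both genes.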
